A study of Homo sapiens with 6 samples.

Results

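IRAK2 was the one gene of IRAK and TAK1 interleukin-1 signalling whose level stood clearly apart after Caba-780, at 2929.7 ± 168 normalized counts with the drug and 408 ± 85.3 in controls (SD, n = 3 each). MAP3K8 was also higher in every treated library, although both groups were low. With all 6 libraries, IL1R1, MYD88, IRAK1, IRAK4, TAB2, TAB3 and MAP3K7 had log2 changes between −0.26 and 0.18, and their groups overlapped. The genes were named as a set of 10, which also holds IRAK3. Rows were taken by gene symbol, and 9 of the 10 were found among the 23619 genes of the table, while IRAK3 was not analysed here. The set was chosen on the levels of its genes in these same libraries, with their response to Caba-780 already known, so their levels and changes are a description. Where a count of them past a threshold is printed, nothing is read from it.

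RNA-seq was done on T24 cells, an established line from human bladder cancer, in 3 libraries of cells treated for 24 h with Caba-780, a drug for imaging by near-infrared fluorescence, at 3.84 µM and in 3 control libraries whose treatment label is none. All 6 carry the genotype label WT. Whether control cells received a vehicle is not labelled, nor whether replicates were grown separately. The p-values therefore reflect the variation among these 6 libraries, and part or all of it may be technical. All libraries come from 1 cell line. Values are normalized counts, which are the reads of a gene after scaling by a factor for each library, and log2 changes are treated minus control means of log2(value + 1), each with limma's standard error (SE). For low genes such a change depends on the added 1.

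The libraries held 14591234 to 15983035 reads in genes. Control replicate 3 stood apart, with 13627 genes detected where the other 5 libraries had 19467 to 20308, so results are given with and without it. Of 13 epithelial and urothelial markers 9 had a row and 5 reached 10 normalized counts in a library, with a sum of 10803 to 14523 in Caba-780 libraries and 7952 to 12252 in controls. The keratins KRT8 (3121 to 7675) and KRT18 (3308 to 4685) were well above the floor in every library, as was the urothelial plaque gene UPK1B (113 to 224), while the epithelial cadherin CDH1 was at most 2.69. EPCAM was 0 in 5 libraries and 38.3 in control replicate 3. Of 9 leukocyte markers 3 had a row. Their sum was 46.6 to 55.6 in Caba-780 libraries and 0 to 12.6 in controls, nearly all of it from the integrin ITGAM, while LYZ and CSF1R reached at most 2.95 in any library. The sum of the endothelial markers was 3.93 to 8.49 with Caba-780 and 0 to 7.20 in controls. The sum of the fibroblast markers was 122 to 231 with Caba-780 and 242 to 503 in controls, mostly from COL1A1. The part of these markers in the results was not tested. In bulk RNA, fewer cells of a type and less RNA per cell cannot be told apart.

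Interleukin-1 acts through the receptor IL1R1 and its accessory chain IL1RAP, whose intracellular domains gather the adaptor MYD88. MYD88 assembles with the kinase IRAK4 and then with IRAK1 or IRAK2, which engage the ubiquitin ligase TRAF6. The chains that TRAF6 builds are read by TAB2 and TAB3, the ubiquitin-binding partners of the kinase MAP3K7 (TAK1). MAP3K7 switches on the IKK complex, and so NF-kB, and the JNK and p38 kinases. MAP3K8 (TPL2) runs beside it, held by the NF-kB precursor made from NFKB1 until IKK frees it to act on the ERK pathway.

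The receptor and the adaptor were measured first. IL1R1 (ENSG00000115594, chromosome 2, 102064544 to 102179874, GRCh38), the signalling receptor, had 245, 286 and 248 normalized counts in the Caba-780 libraries and 266, 217 and 236 in the controls. The groups overlapped, and the log2 change was 0.12 ± 0.20 (SE) with 6 libraries and 0.11 ± 0.18 without control replicate 3. MYD88 (ENSG00000172936, chromosome 3, 38138478 to 38143022) had 582, 555 and 537 in Caba-780 libraries and 645, 660 and 364 in controls. Its treated libraries lay between control replicate 3 and the other controls. The change was 0.05 ± 0.27 with all libraries. Leaving out control replicate 3 turned it to −0.23 ± 0.15, with every treated library then below both controls, as for 28.4% of the 13708 genes then tested.

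Among the IRAK kinases the level of IRAK2 alone was separated between the groups. IRAK4 (ENSG00000198001, chromosome 12, 43758944 to 43789543), the kinase that starts the cascade, had 134, 225 and 150.2 normalized counts with Caba-780 and 167, 157 and 215 in controls. IRAK1 (ENSG00000184216, chromosome X, 154010500 to 154019980), its main substrate, had 6363, 4457 and 6573 with Caba-780 and 6281, 6121 and 3310.0 in controls. For both genes the groups overlapped, and 1 library of each group lay far from the other 2. The log2 change of IRAK4 was −0.10 ± 0.28 (SE) with all libraries and 0.03 ± 0.22 without control replicate 3. That of IRAK1 was 0.18 ± 0.31 and turned to −0.12 ± 0.15 without that library.

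IRAK2 (ENSG00000134070, chromosome 3, 10164865 to 10243743), an IRAK1 relative known for weak or absent kinase activity and for sustaining the signal to TRAF6, had 3029, 2735 and 3025 normalized counts with Caba-780. The controls had 438, 473 and 311. The lowest treated library was far above the highest control. The ratio of the means was 7.19-fold, and 6.43-fold without control replicate 3. The log2 change was 2.86 ± 0.21 (SE) with 6 libraries and 2.68 ± 0.14 without control replicate 3, and the authors' deposited table gives 2.84. The reads behind it were 3380, 2901 and 3081 with Caba-780 and 452, 460 and 276 in controls. By size of rise IRAK2 stood at rank 170 of 13847 genes with 6 libraries and 76 of 13708 without control replicate 3.

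**Figure D1:**
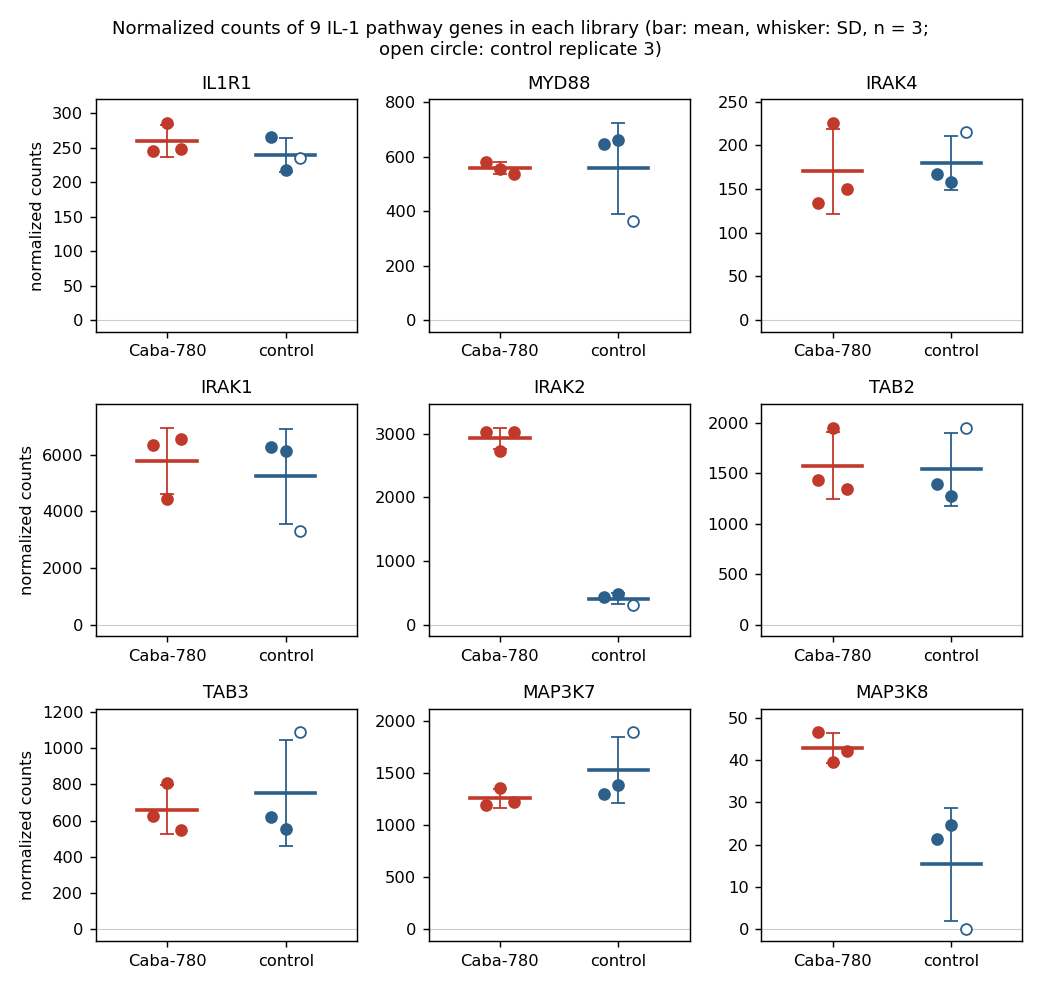
Normalized counts of the 9 genes in each library, Caba-780 on the left and control on the right of each panel; bars are means and whiskers SD (n = 3), and the open circle is control replicate 3. IRAK2 lies between 2735 and 3029 with Caba-780 and between 311 and 473 in controls, and MAP3K8 is the one other gene with every treated library above every control with all 6 libraries.

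The RefSeq promoter window of IRAK2 (build GRCh38.p14, chr3:10164669-10164968, plus strand), from 250 bases before to 50 bases after the transcript start, is shown because IRAK2 had the largest change. Capitals mark only matches to the kappaB consensus, the site bound by NF-kB, and the window is wholly in lower case because it held none. The AP-1 motif TGANTCA, which is not marked, did not match it on either strand. Its GC content was 72.0%.
IRAK2: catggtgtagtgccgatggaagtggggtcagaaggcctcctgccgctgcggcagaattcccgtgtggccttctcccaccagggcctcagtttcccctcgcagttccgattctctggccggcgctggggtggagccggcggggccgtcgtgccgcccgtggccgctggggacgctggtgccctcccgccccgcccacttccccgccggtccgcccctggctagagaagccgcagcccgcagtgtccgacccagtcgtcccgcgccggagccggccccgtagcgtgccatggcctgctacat
A match was found in 5.91% of all 35116 RefSeq windows of this length for the kappaB consensus and in 7.71% for TGANTCA. No match says only that these letters are not in this window. Of the 10 genes of the set, which have 16 windows in all, MAP3K8 and TAB2 held a kappaB match and MAP3K8 and IRAK1 a match to TGANTCA.

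MAP3K7 and its ubiquitin-binding partners had overlapping levels in the groups. MAP3K7 (ENSG00000135341, chromosome 6, 90513573 to 90587045), the TAK1 kinase, had 1194, 1359 and 1220.3 normalized counts with Caba-780 and 1304, 1387 and 1894 in controls. TAB2 (ENSG00000055208, chromosome 6, 149218641 to 149411613) had 1436, 1952 and 1339 with Caba-780 and 1389, 1278 and 1948 in controls. TAB3 (ENSG00000157625, chromosome X, 30827442 to 30975084), the TAB2 paralog, had 624, 809 and 547 with Caba-780 and 617, 552 and 1088 in controls. In each of these genes control replicate 3 was the highest control and Caba-780 replicate 2 the highest treated library, and the groups overlapped. The log2 change of MAP3K7 was −0.26 ± 0.20 (SE) with 6 libraries and −0.10 ± 0.14 without control replicate 3. For TAB2 it was 0.04 ± 0.24 and 0.22 ± 0.15. The change of TAB3 turned, at −0.14 ± 0.31 with 6 libraries and 0.16 ± 0.16 without control replicate 3. TAB3 shares 245 and 292 exonic bases with 2 antisense genes (GENCODE v29), and the strand setting of the counting is not given in the sources used here, so reads of that stretch cannot be told apart.

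MAP3K8 (ENSG00000107968, chromosome 10, 30433937 to 30461833), the TPL2 kinase, was the lowest of the set, with 46.6, 39.6 and 42.2 normalized counts in Caba-780 libraries and 21.3, 24.7 and 0 in controls. All treated libraries lay above all controls. The reads were 52, 42 and 43 with Caba-780 and 22, 24 and 0 in controls. A count of 0 in control replicate 3 allows up to 3.38 normalized counts (3 reads, counting error only). That library had only 638 genes with 1 to 9 reads, where the others had 5636 to 6100. MAP3K10 also had 0 reads there and 252 and 194 in the other controls. The level of MAP3K8 in that library is therefore not bounded by counting error alone. The ratio of the means was 2.79-fold with 6 libraries and 1.86-fold without control replicate 3. The log2 change was 2.40 ± 1.28 (SE) with 6 libraries, a value set by the 0 of 1 library and the added pseudocount, and 0.87 ± 0.34 without that library.

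One of the 3 RefSeq windows of MAP3K8 (build GRCh38.p14, chr10:30433771-30434070, plus strand) is printed because this gene was the other one higher in every treated library and its window holds a kappaB match, in capitals, with its first base 29 bases before the transcript start.
MAP3K8: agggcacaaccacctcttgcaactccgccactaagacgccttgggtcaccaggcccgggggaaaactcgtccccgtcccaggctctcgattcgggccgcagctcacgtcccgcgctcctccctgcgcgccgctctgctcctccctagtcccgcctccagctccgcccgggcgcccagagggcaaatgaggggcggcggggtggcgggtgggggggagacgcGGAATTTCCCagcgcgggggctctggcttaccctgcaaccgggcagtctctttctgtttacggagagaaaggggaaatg
The 3 windows hold 2 distinct kappaB matches and 1 match to TGANTCA, which do not overlap. A match is a description of the letters and not a bound site.

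**Figure D2:**
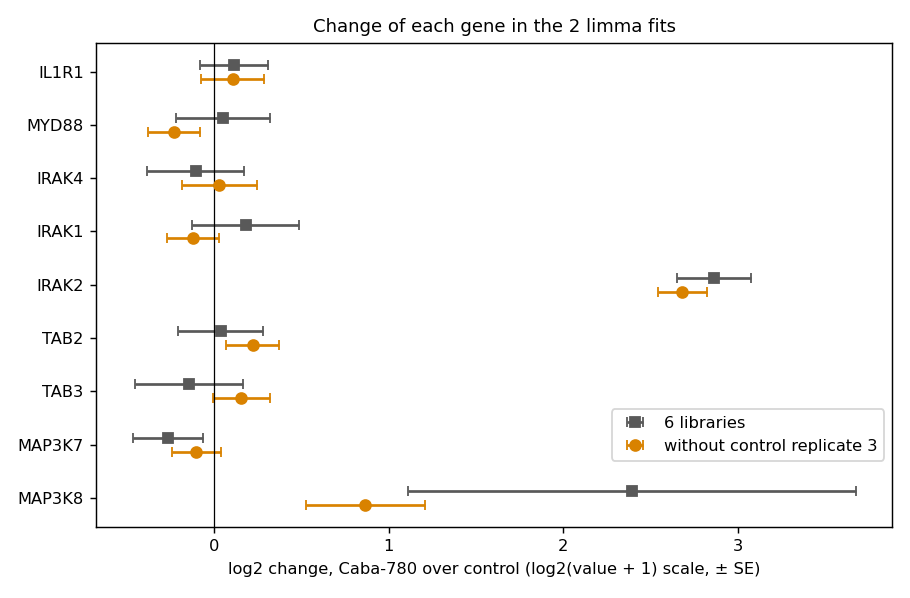
Log2 change of each gene with Caba-780 relative to controls (log2(value + 1) scale), with whiskers of 1 SE; squares are the limma fit with 6 libraries and circles the fit without control replicate 3. IRAK2 lies at 2.86 and 2.68, MAP3K8 at 2.40 and 0.87, and the other 7 genes between −0.26 and 0.22.

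Across all genes, limma with Benjamini-Hochberg adjustment put 1.00% of 13847 genes past an adjusted p of 0.05 with 6 libraries (0.744% higher and 0.260% lower), and 32.4% of 13708 without control replicate 3 (17.2% higher and 15.2% lower). DESeq2 with 6 libraries put 8.83% past it (5.26% higher and 3.57% lower). Of the 9 genes, 1 was past that threshold in each of these fits, which was IRAK2 each time, and the set was chosen on this same contrast. Without control replicate 3 the calls of all genes were 2359 higher and 2077 lower, and with library totals as the scaling they were 2956 higher and 1330 lower. All 9 passed the filter, which asked for 10 or more normalized counts in 3 or more libraries. With 6 libraries 2 of the 9 were higher in every treated library and 0 lower, against 17.9% and 13.4% of all genes tested. Without control replicate 3 those counts were 2 and 1, against 28.0% and 28.4%. The median log2 change of the 9 was 0.05 with 6 libraries, where that of all genes tested was 0.10, and 0.11 without control replicate 3, where that of all genes tested was −0.02. Library totals as the scaling moved the median of all genes to 0.23 with 6 libraries. On leaving out any 1 of the 3 Caba-780 libraries, control replicate 1 or control replicate 2 from the fit with 6 libraries, no member was past the threshold and at most 1 gene of all was. The log2 change of IRAK2 was between 2.84 and 2.98 in those fits.

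Levels were also set against each other per kilobase of gene length. That length is the union of exons over all transcripts of a gene, from 1 transcript for IRAK2 to 14 for IRAK4. The order and the shares between genes depend on this choice of length. With Caba-780 the order was IRAK1 (1449 ± 291 normalized counts per kb, SD, n = 3), IRAK2 (841 ± 48.3), TAB2 (262 ± 54.8), MAP3K7 (174 ± 12.3), MYD88 (139.9 ± 5.62), TAB3 (51.9 ± 10.6), IL1R1 (36.6 ± 3.20), IRAK4 (30.2 ± 8.63) and MAP3K8 (11.9 ± 0.98). Of these neighbours IL1R1 and IRAK4 overlapped and the others did not. In controls the order was IRAK1 (1309 ± 418), TAB2 (256 ± 59.7), MAP3K7 (211 ± 44.2), MYD88 (139 ± 41.7), IRAK2 (117 ± 24.5), TAB3 (59.2 ± 23.0), IL1R1 (33.8 ± 3.47), IRAK4 (32.0 ± 5.53) and MAP3K8 (4.26 ± 3.72). There TAB2 overlapped MAP3K7, MYD88 overlapped IRAK2, and IL1R1 overlapped IRAK4, while without control replicate 3 no neighbours overlapped and the order was the same. IRAK2 thus ranked 2 per length with Caba-780 and 5 in controls, and the order of the other 8 genes was the same in both groups.

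Within the IRAK genes measured, IRAK2 made up 35.0%, 40.5% and 34.2% of the summed level per kb of IRAK1, IRAK2 and IRAK4 in Caba-780 libraries, against 7.30%, 8.02% and 9.36% in controls. IRAK1 made up 57.4% to 64.7% with Caba-780 and 86.6% to 91.0% in controls. The level per kb of IRAK2 was 0.59 ± 0.10 of that of IRAK1 with Caba-780 and 0.092 ± 0.014 in controls (SD, n = 3 each). IRAK1 thus remained the more abundant of the pair in every library. The ratio of TAB2 to TAB3 per kb was 5.05 ± 0.16 with Caba-780 and 4.48 ± 0.60 in controls.

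**Figure D3:**
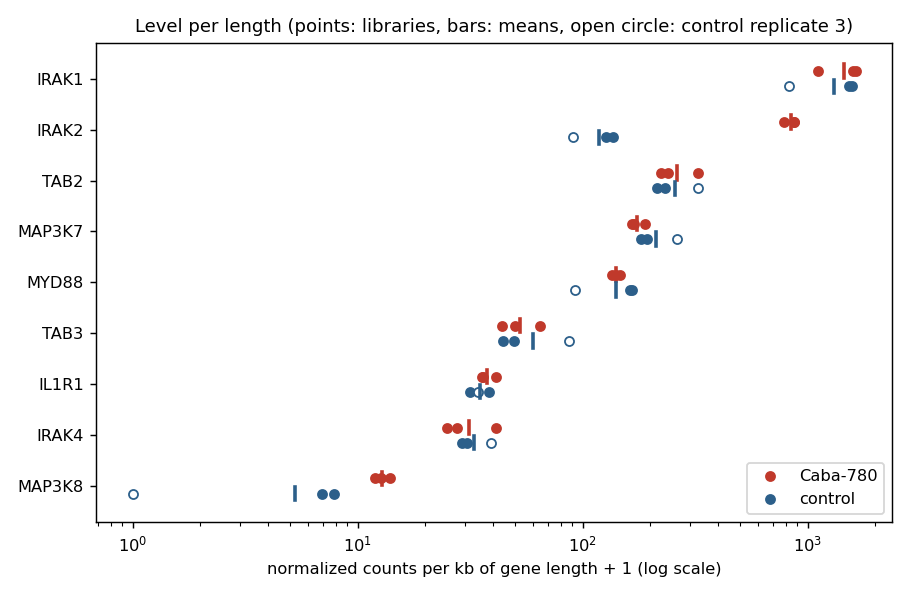
Normalized counts per kb of gene length, plus 1, on a log axis, for each library (points) and group mean (bars), Caba-780 above control in each row; the open circle is control replicate 3. IRAK2 is the gene whose groups lie far apart, at a mean of 841 with Caba-780 and 117 in controls.

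Single libraries moved several of these genes at once. Against the mean of the other 2 libraries of its group, Caba-780 replicate 2 was above for IRAK4, TAB2, TAB3, MAP3K7 and IL1R1, with IRAK4 at 0.66 on the log2 scale, and below for IRAK1 by −0.54. Control replicate 3 was above its group for TAB3 (0.90), TAB2 (0.55), MAP3K7 (0.49) and IRAK4 (0.41), and below for IRAK1 (−0.91), MYD88 (−0.84), IRAK2 (−0.55) and MAP3K8 (−4.58, with 0 reads). In 8 of the 9 genes both libraries deviated in the same direction, which was up in 4 and down in 4, although MYD88 was down by −0.01 in Caba-780 replicate 2. The share of all genes doing so was not counted, so nothing is read from this count. Across all genes the deviations of these 2 libraries from their group means correlated at 0.34. Among all genes the 9 lay at percentiles 7.84 (IRAK1) to 96.7 (IRAK4) in Caba-780 replicate 2. In control replicate 3 they lay at 4.26 (MAP3K8) to 84.0 (TAB3). The 4 genes that lay above had deposited lengths of 5629 to 12711 bases, and the 4 that lay below had lengths of 3483 to 4001 bases. IL1R1, of 7083 bases, was up by 0.21 in Caba-780 replicate 2 and down by −0.03 in control replicate 3. Across 13847 genes the deviation and the gene length had a Spearman rho of 0.246 for Caba-780 replicate 2 and 0.249 for control replicate 3. Genes are not independent replicates, and the part of length in the changes was not tested.

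Other genes of the pathway were taken from 8 lists that leave out the genes above. The lists were written with earlier results of these data known. Their counts, medians and p-values are therefore a description, and nothing is read from how they compare with all genes. Of 114 genes 96 had a row and 79 passed the filter. With 6 libraries TNFAIP3, NFKB1 and NFKBIE rose (limma adjusted p = 0.0118 for TNFAIP3, 0.0165 for NFKB1 and 0.0233 for NFKBIE) and none fell, and the median log2 change was 0.31, where that of all genes tested was 0.10. All 3 of those calls were lost on leaving out any 1 library other than control replicate 3, with limma adjusted p of 0.051 to 0.24, while the log2 changes stayed between 3.84 and 4.12 for TNFAIP3, 1.76 and 1.82 for NFKB1, and 1.76 and 1.97 for NFKBIE. Without control replicate 3, 23 of the 79 passed as higher and 9 as lower, where 17.2% of all genes tested passed as higher and 15.2% as lower. The 23 include IL1RL1 and IL11, which met the filter through the treated libraries, where they are high. The median was 0.18 where that of all genes tested was −0.02. Some of these calls rest on 1 library. Leaving out control replicate 2 as well ended those of IL1RAP, UBE2N, TBKBP1, MAPK3, MAP3K9, MAP3K20, MAPK11 and IKBKE, and leaving out control replicate 1 ended those of TAB1, IL18, TNIP2 and IKBKE. Those of IKBKE, MAPK11 and TNIP2 were also lost without Caba-780 replicate 3, and that of IKBKE without Caba-780 replicate 1. The direction stayed in each of these fits. Such fits were not listed gene by gene for TIFA, CHUK, MAP2K2, MAP3K5, MAP3K6, NFKBIZ, SOD2 and IL11. Whether the calls of those genes rest on 1 library is therefore not shown here. All adjusted p-values below are from limma without control replicate 3 unless said otherwise. TIFA, CHUK, MAP2K2, MAP3K5, MAP3K6, NFKBIZ, SOD2 and IL11 are named below because a count includes them, after their values were seen.

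Of 6 ligands and receptors of the IL-1 family tested, IL1RL1, IL1RAP and IL18 passed as higher and none as lower without control replicate 3, and none passed with 6 libraries. IL1RL1, the receptor of interleukin-33, had 52.0, 93.3 and 65.8 normalized counts with Caba-780 and 11.6, 6.17 and 0 in controls. Its log2 change was 2.86 ± 0.38 (SE), and it is given with no p because it met the filter on low values through the treated libraries, where it is high. IL1RAP, the accessory chain shared by IL1R1 and IL1RL1, had 226, 337 and 281 with Caba-780 and 174, 171 and 249 in controls. It rose by 0.68 ± 0.19 (SE, limma adjusted p = 0.0070), and the groups overlapped when control replicate 3 was kept. IL18 rose by 0.59 ± 0.17 without control replicate 3, whose own level of 504 was above every treated library. The genes of the 2 ligands of IL1R1 were low. IL1A reached at most 7.54 with Caba-780 and 16.9 in controls, and IL1B at most 5.38 with Caba-780 and 4.85 in controls, and neither met the filter. The receptor antagonist IL1RN was not analysed here.

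Of 7 Toll-like receptor and TIR adaptor genes tested, 1 rose and 1 fell without control replicate 3 and none passed with 6 libraries. TICAM1, the adaptor of TLR3 and TLR4 that works without MYD88, had 1093, 862 and 1099 normalized counts with Caba-780 and 472, 519 and 159 in controls. It rose by 1.03 ± 0.15 (limma adjusted p = 8.2e-06). UNC93B1, which carries Toll-like receptors to endosomes, had 322, 249.9 and 255 with Caba-780 and 502, 479 and 147 in controls. It fell, with a change of −0.84 ± 0.17 (limma adjusted p = 0.00037), although control replicate 3 lay below every treated library.

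Of 16 genes of the ubiquitin steps between IRAK and TAK1 tested, 4 rose and 1 fell without control replicate 3, and with 6 libraries TNFAIP3 was called. TRAF6 itself had 283, 275 and 261 normalized counts with Caba-780 and 305, 266 and 526 in controls, with a change of −0.06 ± 0.17 that did not pass. UBE2N, the conjugating enzyme that works with TRAF6, had 1092, 1204 and 1110.4 with Caba-780 and 1484, 1694 and 1794 in controls. It fell, with a change of −0.48 ± 0.14 (limma adjusted p = 0.0098), and lay below every control. TNFAIP3 (A20), an enzyme that edits ubiquitin chains, had 2360.5, 3079 and 2429 with Caba-780 and 206, 177 and 125 in controls, a rise of 3.76 ± 0.15. CYLD, another deubiquitinase, had 2024, 2863 and 2332 with Caba-780 and 744, 645 and 1226 in controls, a rise of 1.78 ± 0.15 (limma adjusted p = 6.1e-10). SQSTM1, the scaffold p62, rose by 1.27 ± 0.14, and TIFA, a TRAF6 partner, by 0.89 ± 0.16.

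Of 9 genes of the TAK1 partner and IKK list tested, IKBKE and CHUK rose and TAB1 and TBKBP1 fell without control replicate 3. The rise of CHUK was 0.39 ± 0.15 (limma adjusted p = 0.046), although control replicate 3 had 1433, above every treated library. TAB1, the activating partner of MAP3K7, had 522, 373 and 472 normalized counts with Caba-780 and 769, 655 and 392.5 in controls. Its change was −0.65 ± 0.16 (limma adjusted p = 0.0030) without control replicate 3 and did not pass with 6 libraries, where the groups overlapped. IKBKB, the main catalytic IKK subunit, had 573, 557 and 619 with Caba-780 and 547, 566 and 535 in controls, with a change of 0.07 ± 0.15 that did not pass. TBKBP1, an adaptor of the kinase TBK1, had 192, 108 and 161 with Caba-780 and 238, 262 and 23.7 in controls. Its change was −0.73 ± 0.21 without control replicate 3 (limma adjusted p = 0.010) and 0.38 with 6 libraries, so its direction rests on that library.

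Of 14 JNK and p38 pathway genes tested, MAP2K3, MAPK11 and MAPKAPK5 rose and none fell without control replicate 3. MAP2K3, a kinase that activates p38, had 3240.5, 2759.9 and 3039 normalized counts with Caba-780 and 1201, 1092 and 458 in controls. It rose by 1.39 ± 0.14 (limma adjusted p = 9.0e-09). MAPK11, which is p38 beta, rose by 0.59 ± 0.17, and MAPKAPK5, a p38 target, by 0.67 ± 0.16. Without control replicate 3, 4 of the 6 partners and substrates of MAP3K8 passed. NFKB1, whose product holds MAP3K8, had 3842, 4191 and 3831 with Caba-780 and 1081, 1166 and 1158 in controls, a rise of 1.81 ± 0.13 (limma adjusted p = 3.2e-11). TNIP2, also in that complex, rose by 0.55 ± 0.16, while the substrate MAP2K2 and the ERK kinase MAPK3 fell, with changes of −0.43 ± 0.14 for MAP2K2 and −0.64 ± 0.15 for MAPK3. For both, control replicate 3 lay below every treated library.

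Of 15 other MAP3K genes tested, 4 rose and 1 fell without control replicate 3 and none passed with 6 libraries. MAP3K1, which feeds the JNK pathway, had 509.9, 616 and 466 normalized counts with Caba-780 and 1023, 844 and 892 in controls. It fell, with a change of −0.82 ± 0.16 (limma adjusted p = 0.00024), and every treated library lay below every control. MAP3K9, MAP3K5, MAP3K20 and MAP3K6 rose without control replicate 3, by 0.73 for MAP3K9, 0.60 for MAP3K5, 0.55 for MAP3K20 and 0.43 for MAP3K6. MAP3K20 had 4605 in control replicate 3, above every treated library.

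Of 6 genes induced by IL-1 tested, 4 passed as higher and 2 as lower without control replicate 3, and NFKBIE was called with 6 libraries. NFKBIE, an inhibitor of NF-kB, had 1827, 1507 and 2019 normalized counts with Caba-780 and 481, 507 and 482 in controls, a rise of 1.84 ± 0.15 (limma adjusted p = 2.3e-10). TNFAIP2 rose by 1.41 ± 0.15, and SOD2, the mitochondrial superoxide dismutase, by 1.00 ± 0.14, although control replicate 3 had 4035, above every treated library. IL11, the other one counted as higher, had a change of 1.23 ± 0.46. It met the filter through the treated libraries, where it is high, and it did not pass in DESeq2 (adjusted p = 0.082). ZC3H12A, the RNase Regnase-1 that degrades inflammatory mRNAs, had 242, 239 and 278 with Caba-780 and 631, 539 and 80.1 in controls. It fell, with a change of −1.20 ± 0.16 (limma adjusted p = 2.6e-06), and so did NFKBIZ, with −0.92 ± 0.16, while neither passed with 6 libraries, where control replicate 3 lay below every treated library in both.

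**Figure D4:**
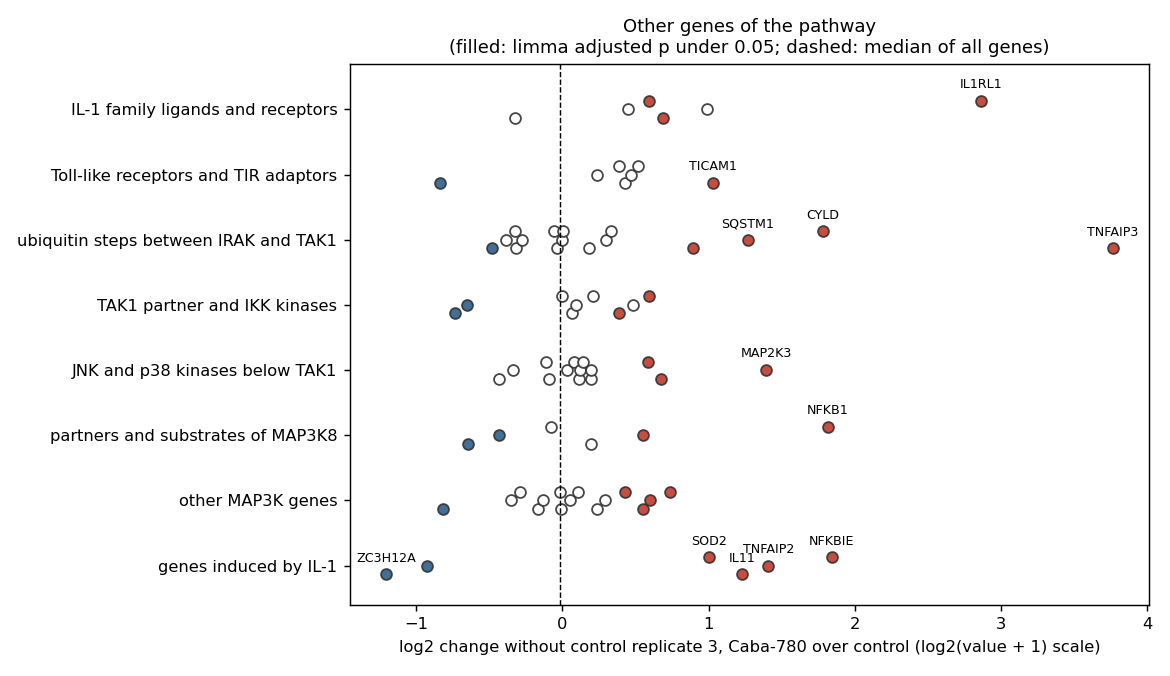
Log2 change of each tested gene of the 8 pathway lists without control replicate 3, as treated minus control means of log2(value + 1); filled points passed a limma adjusted p of 0.05 (red higher, blue lower), open points did not, and the dashed line is the median of all genes at −0.02. TNFAIP3 lies furthest up at 3.76 and ZC3H12A furthest down at −1.20. IL1RL1 and IL11, among the filled points, met the filter through the treated libraries, where they are high.

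The 5 protein-coding genes whose log2 level was most like that of IRAK2 over the 6 libraries, of 12014 compared, were YARS (Pearson r = 0.9988), SUSD6 (0.9981), ZNF584 (0.9971), STYK1 (0.9971) and CDC6 (0.9964). YARS, a tyrosyl-tRNA synthetase, averaged 3813 normalized counts with Caba-780 and 2033 in controls, and CDC6, a replication licensing factor, averaged 3715 with Caba-780 and 1683 in controls. The 6 points fall into the 2 groups and share the libraries, so these values describe the pattern only, and 32 genes had an r above 0.99.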

How the data were processed

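RNA-seq was analysed in 3 Caba-780 and 3 control libraries of T24 cells. The build hg38 and, as tools, DESeq2 1.20.0, featureCounts 1.5.0-p3, HISAT2 2.0.5 and fastp are named, per the submitters' processing notes, while parameters and strand setting were not given in the sources used here. Deposited library columns hold a normalized signal, the authors' count of reads in a gene after division by a library size factor. At a tolerance of 1e-06, 100% of values were whole multiples of 1 unit, which gave whole reads. The authors' deposited log2 fold changes and p-values come from their own comparison, and the deposited gene length (other) is in bases. It equalled the exon union of GENCODE v29 for the 9 genes.

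Limma 3.58.1 in R 4.3.3 was fitted to log2(value + 1) with trend and robust moderation, on genes reaching 10 normalized counts in 3 or more libraries, two-sided, with Benjamini-Hochberg adjustment over all genes. The members and lists were chosen with earlier results of these data known. Named genes were the 10 members, 9 pathway genes always shown, and from each list up to 3 called genes with the lowest p without control replicate 3, besides the 5 genes most like IRAK2. Alternatives changed scaling, filter, pseudocount, test (edgeR 4.0.16 and DESeq2 1.42.0 on the recovered reads), leaving out libraries one by one, and a block for the replicate number. No pair of libraries within a group agreed within sampling noise (chi-square per degree of freedom 9.85 to 207). Each test was also run on simulated counts of known answer, in which no library stood apart as control replicate 3 does. The runs therefore do not test the fit with 6 libraries in that respect. Limma recovered 28.4% of simulated 1.5-fold and 98.5% of 2-fold changes with 6 libraries. Without control replicate 3 it recovered 31.3% and 95.5%. It made 11 false calls with 6 libraries and 2 without control replicate 3. All genes were simulated with the same dispersion, and the changed ones were drawn from genes with more reads than MAP3K8. These rates therefore do not cover low genes. Of 2 rows that share the symbol SOD2, the one with the higher level was used. Promoter windows come from RefSeq (GRCh38.p14), and all 10 members matched.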

Additional observations from a re-analysis of the deposited data

How the results depend on the processing

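With 6 libraries 139 genes were called, 1223 with DESeq2 and 0 with the replicate number as a block, with 1563 genes at an unadjusted p under 0.05 in that limma fit. Leaving out 1 library gave 0 to 4436 calls, the highest without control replicate 3. The count of members called was 1, and it was 0 with the block and 0 to 1 on leaving out 1 library. For the other pathway genes it was 3, with 11 in DESeq2, 0 with the block and 0 to 32 on leaving out 1 library. Without control replicate 3, 4436 genes, 1 member and 32 pathway genes were called. Leaving out a further library then gave 2300 to 4267 genes, 1 member each time, and 20 to 34 pathway genes. With 1 control left, that library is assumed to vary like the other group. The count of members called without control replicate 3 became 2 with library totals, with TMM scaling and with a pseudocount of 5. The second was MAP3K8, which lay just short of the threshold in the main fit (limma adjusted p = 0.052). The change of TBKBP1 was 0.38 with 6 libraries and turned to −0.73 without control replicate 3, which was called in limma. It ranged from −0.73 to 0.97 on leaving out 1 library. Of the changes of named genes, 505 values with 6 libraries and 500 without control replicate 3 kept their side of the threshold. In the same order, 24 and 19 lost a call, and 28 and 3 gained one. With 6 libraries 1 value reversed, which was the TBKBP1 change given above. Another value without control replicate 3, not called, also kept its side but shifted by more than a limit set by its SE. The log2 change of IRAK2 ranged from 2.68 to 2.99 over 16 alternatives. Whether same-numbered libraries were paired is not labelled. They correlated at 0.30, −0.33 and −0.10 in their deviations from the group means. These values cannot decide it, because control replicate 3 stands apart and shapes the deviations of all 3 controls. At this depth a floor of 3 reads is 2.69 to 3.38 normalized counts, which limits what can be said of genes with few reads, such as MAP3K8. The cause of the moved counts was not tested.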
